A study of Mus musculus with 20 samples.

Results

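Hippocampal RNA from mice labelled PS19/C3aR KO was compared with that from PS19 mice, in 10 of the 20 libraries of the study. The 5 libraries of each group were chosen by their titles, and all 4 genotypes were male, 9 months old and labelled C57BL/6J. PS19 is a mouse line with a human tau transgene that bears a frontotemporal dementia mutation. The transgene is driven by the mouse prion protein promoter, so its pattern of expression is that of the promoter and not of the human tau gene. Mice labelled PS19/C3aR KO carry the same transgene and a C3aR KO genotype. WT mice and mice labelled C3aR KO, which carry no tau transgene, gave 5 libraries each and are used here as the background. The design of the C3aR allele was not given in the sources used here, nor was it stated whether the mice were littermates or whether libraries came from separate animals. The p-values therefore set group differences only against the spread among libraries within groups, estimated over all 4 genotypes, and that spread may be partly technical.

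C3aR is a G protein-coupled receptor for C3a, the small fragment released when complement component C3 is cleaved. In the brain, astrocytes are a major source of C3 and microglia carry the receptor. In tau mice the hippocampus accumulates aggregated tau and loses neurons, while astrocytes become reactive and microglia move from a homeostatic to a disease-associated state.

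Gene counts came to 36605092 to 43044438 per PS19 library and 33885850 to 46676667 per PS19/C3aR KO library. The scores of the microglial and astrocyte lists were low in PS19 library 5, as described with each result below. Levels of Ttr, a choroid plexus gene, ran from 38.6 to 4059.6 CPM (counts scaled to library size) over the PS19 libraries and from 15.1 to 3929 over the others, and so varied within both groups. The ribosomal RNA gene Rn45s took 0.873 to 3.65% of counts in the PS19 libraries, the highest in library 5, and 1.04 to 3.03% in the PS19/C3aR KO libraries. Prnp, whose promoter drives the transgene, stood at 1885 ± 29.1 CPM in PS19 and 1897 ± 81.3 in the libraries labelled PS19/C3aR KO (± SD, n = 5 for each group), against 888 ± 49.6 in WT and 852 ± 19.3 in C3aR KO. Mapt, the mouse tau gene, differed by -0.019 on the log2 scale (SE 0.044, edgeR adjusted p = 0.877) between the tau groups. Its level was 618 ± 21.03 CPM in PS19 and 525 ± 27.8 in WT. Whether transgene reads are counted in Mapt or in Prnp was not tested. All fold changes are given as the libraries labelled PS19/C3aR KO minus the PS19 libraries, from an edgeR quasi-likelihood fit with Benjamini-Hochberg adjustment over 16657 genes, and a gene is said to have risen or fallen at an adjusted p below 0.05.

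C3ar1, the gene for C3aR (GRCm38, chromosome 6, 122847140 to 122856157), was not low in the libraries labelled as knockouts. The PS19 libraries 1 to 5 held 11.5, 9.04, 12.3, 13.7 and 4.98 CPM and the libraries labelled PS19/C3aR KO held 18.05, 18.7, 15.8, 14.96 and 17.5. Every library labelled PS19/C3aR KO was above every PS19 library, and the lowest value was that of PS19 library 5. The difference on the log2 scale was 0.72 (SE 0.18, edgeR adjusted p = 0.0814), and 0.55 (SE 0.12, edgeR adjusted p = 0.0159) without PS19 library 5. Without the transgene the difference was larger, at 2.09 ± 0.286 CPM in WT and 15.98 ± 1.48 in C3aR KO (log2 fold change 2.94, SE 0.20, edgeR adjusted p = 9.51e-08). The counts go against the plain reading of the label. Which part of the gene the allele removes was not stated, and counts over the whole gene therefore do not check it. Groups are named below as the libraries are labelled. Within 5 Mb of C3ar1 on either side, 120 genes were tested, C3ar1 among them. Of these edgeR called 0, DESeq2 8 and limma-voom 1. Over all 16657 genes the 3 tools called 42, 443 and 89. By edgeR, 15% of the 120 had an unadjusted p below 0.05 against 14.5% of all genes. Outside this window, called genes on the same chromosome include Clec7a, which starts at 129461591, and Tm7sf3 and 4930479D17Rik further along. Whether their differences go with the C3ar1 region was not tested.

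Between the tau groups 42 genes were called, 0.252% of those tested. Of these, 12 were higher (0.072%) and 30 lower (0.18%) in PS19/C3aR KO. All 12 higher genes and 24 of the 30 lower ones did not overlap between the groups, as did 0.997% (higher) and 1.58% (lower) of all genes, though these differences chose the genes. The lower genes included microglial and immune genes such as Clec7a, Cd74, Ccl6, Lat2 and Arhgap30, the lysosomal enzyme gene Gusb, and Cryab and Il33, genes for a small heat shock protein and a cytokine. The higher genes included Fam198b, Zfp963, Coq2 and Ltbp4. At an unadjusted p below 0.05 the lower genes again outnumbered the higher ones, with 1484 (8.91%) against 932 (5.6%). The median log2 fold change over all genes was -0.0041.

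**Figure D1:**
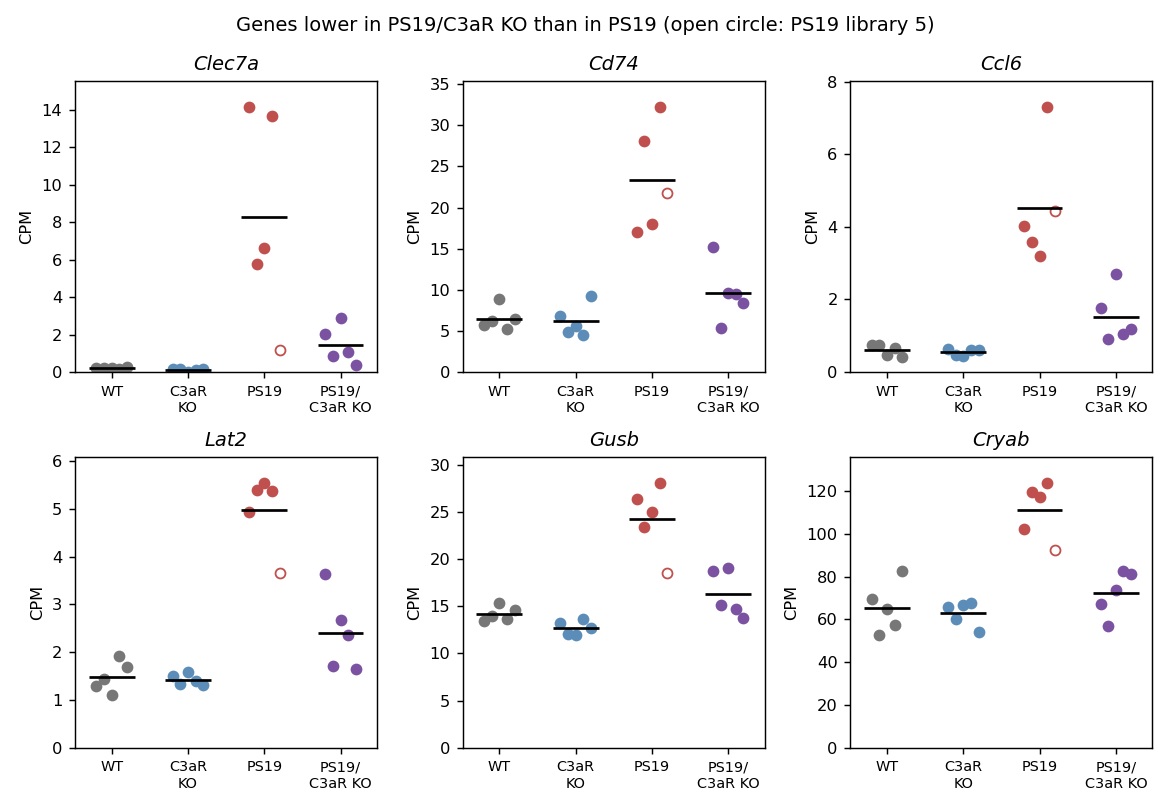
Normalized counts (CPM) in each library for 6 genes that were lower in PS19/C3aR KO than in PS19; points are libraries, lines are group means, and the open circle is PS19 library 5. The tau groups overlap for Clec7a and Gusb, through PS19 library 5, and do not overlap for Cd74, Ccl6, Lat2 and Cryab.

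Clec7a (chromosome 6, 129461591 to 129472785) encodes dectin-1, a receptor that marks disease-associated microglia. Its level was 14.1, 5.78, 6.62, 13.7 and 1.203 CPM in PS19 libraries 1 to 5 and 2.04, 0.864, 2.88, 1.07 and 0.380 in the libraries labelled PS19/C3aR KO. PS19 library 5 lay within the range of the other group and the remaining 4 PS19 libraries lay above it. Clec7a fell (log2 fold change -2.53, SE 0.51, edgeR adjusted p = 0.0402). With only the 10 tau libraries in the fit it was not called (log2 fold change -2.52, edgeR adjusted p = 0.201). Ccl6 (chromosome 11, 83587886 to 83593087), a chemokine gene of myeloid cells, held 4.03, 3.58, 3.19, 7.29 and 4.45 CPM in PS19 and 1.77, 0.912, 2.703, 1.05 and 1.19 in PS19/C3aR KO. The groups did not overlap, and library 3 was the highest of the PS19/C3aR KO libraries (log2 fold change -1.57, SE 0.27, edgeR adjusted p = 0.0275). In WT, Clec7a stood at 0.229 ± 0.0369 CPM and Ccl6 at 0.609 ± 0.155.

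Lat2, Arhgap30, Arhgap9, Pycard and Selplg fell as well. Lat2 (chromosome 5, 134600103 to 134619783), an adaptor of immune receptors, was at 4.93, 5.39, 5.53, 5.37 and 3.67 CPM in PS19 and 3.64, 1.704, 2.67, 2.35 and 1.66 in PS19/C3aR KO, and the groups did not overlap, though PS19 library 5 and PS19/C3aR KO library 1 nearly met (log2 fold change -1.05, SE 0.19, edgeR adjusted p = 0.0315). Arhgap30, a signalling gene of haematopoietic cells, fell from 8.15 ± 2.08 to 4.41 ± 0.983 CPM (log2 fold change -0.89, SE 0.17, edgeR adjusted p = 0.0337). Arhgap9, another such gene, fell from 2.31 ± 0.591 to 1.12 ± 0.174 CPM (log2 fold change -1.05, SE 0.19, edgeR adjusted p = 0.0322); its gene model overlaps that of Gli1. Pycard, which encodes the inflammasome adaptor ASC, fell from 4.62 ± 1.103 to 1.97 ± 0.585 CPM (log2 fold change -1.23, SE 0.25, edgeR adjusted p = 0.0402). In C3aR KO minus WT, Pycard was also lower, at -0.70 (SE 0.26, edgeR unadjusted p = 0.0128). Lat2, Arhgap30, Arhgap9 and Selplg had -0.063, -0.20, -0.11 and -0.068 there. Selplg, a homeostatic microglia gene that encodes a selectin ligand, held 35.5, 42.1, 48.3, 43.1 and 28.5 CPM in PS19 and 30.3, 25.6, 25.4, 26.3 and 28.7 in PS19/C3aR KO. Its PS19 library 5 lay inside the other group's range and the remaining 4 lay above it (log2 fold change -0.53, SE 0.10, edgeR adjusted p = 0.0363). In whole hippocampus, fewer cells of a type and less RNA per cell cannot be told apart.

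Most members of the microglial lists lay below 0, and edgeR called few of them. Of 35 general microglia and myeloid genes, 34 had a log2 fold change below 0 (51.3% of all genes did), 31 at an unadjusted p below 0.05, and the median was -0.68; 1 of them, Arhgap30, passed the adjusted threshold. Of 34 disease-associated microglia genes, 3 fell (Clec7a, Ccl6 and Gusb) and the median was -0.55. Of these 34, 30 lay below 0 and 4 above, with 25 lower and 1 higher at an unadjusted p below 0.05. Of 18 homeostatic microglia genes, 1 fell, all 18 lay below 0, and the median was -0.36. Of 11 genes of border-associated macrophages 0 were called by edgeR, DESeq2 or limma-voom, 1 had an unadjusted p below 0.05, and the median was -0.38. DESeq2 called 18 of the general, 18 of the disease-associated and 6 of the homeostatic genes, all lower, and limma-voom 5, 3 and 2. Over all 16657 genes DESeq2 called 443 and limma-voom 89 in either direction, which is the background for their counts in the lists below as well. The same lists had medians of -0.070, 0.092, -0.041 and -0.13 in C3aR KO minus WT, which uses none of the tau libraries.

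More of these genes were called when PS19 library 5 was left out. The general microglia score, the mean log2 CPM of the members minus the WT mean, was 1.46, 1.43, 1.68, 1.55 and 0.49 in PS19 libraries 1 to 5 and 1.13, 0.35, 1.11, 0.42 and 0.18 in the libraries labelled PS19/C3aR KO. Library 5 was the lowest of its group and stood below 2 of the 5 PS19/C3aR KO libraries, whose libraries 1 and 3 were the highest of theirs. Without PS19 library 5, 481 genes were called (2.87%), 419 of them lower and 62 higher, and all 42 genes were among them. Of the general microglia genes 28 of 35 then fell, of the disease-associated genes 20 of 34 and of the homeostatic genes 8 of 18, against 2.5% of all genes. Library 5 was set apart by its low scores on these lists. The wider differences without it, here and below, follow from that choice and are no support for them. Leaving out PS19/C3aR KO library 1 gave 222 calls, and leaving out any other single tau library gave 6 to 36.

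**Figure D2:**
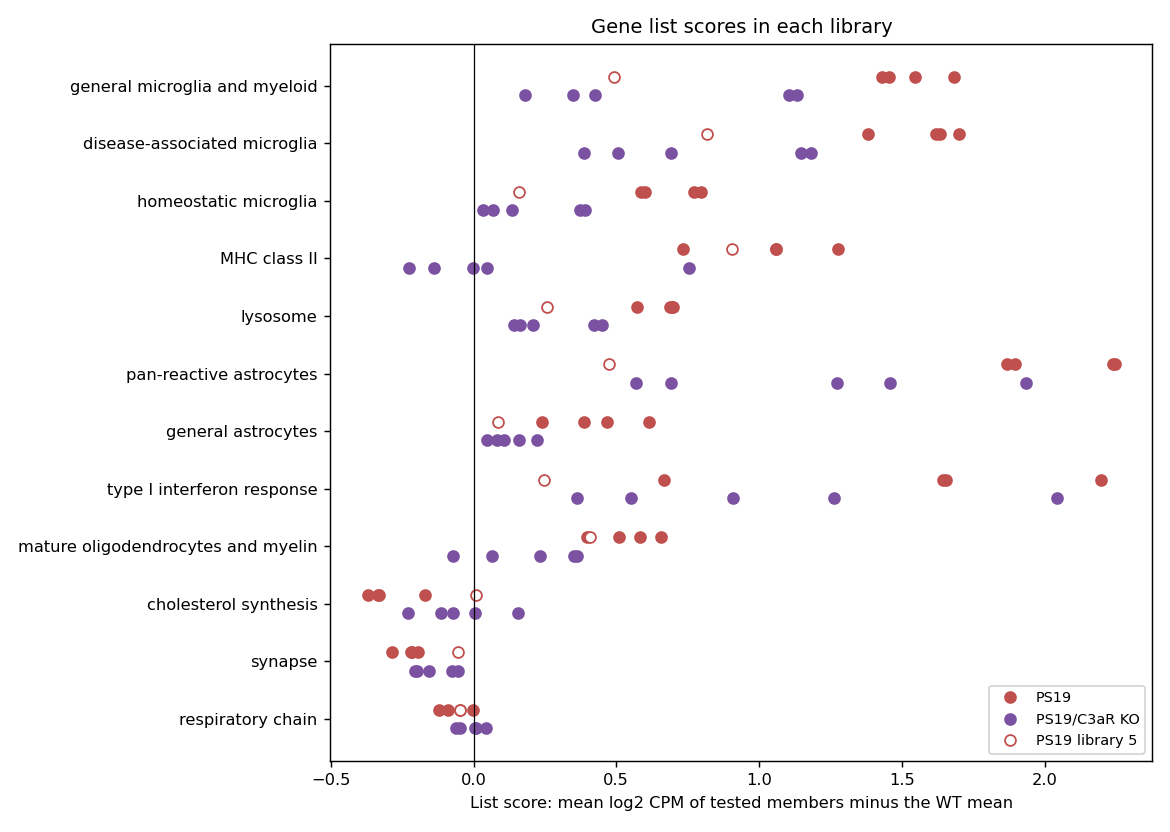
Score of 12 gene lists in each tau library, as average log2 CPM over its members minus the WT mean; filled points are libraries and the open circle is PS19 library 5. The general microglia score of that library is 0.49 against 1.43 to 1.68 in the other PS19 libraries, while its MHC class II score of 0.91 lies inside the PS19 range.

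Several familiar microglial genes did not pass with all libraries in the fit. Trem2, a lipid-sensing receptor needed for the disease-associated state, held 37.3, 31.6, 36.5, 35.3 and 13.8 CPM in PS19 and 20.4, 12.98, 24.7, 11.8 and 11.2 in PS19/C3aR KO. PS19 library 5 was again among the PS19/C3aR KO values (log2 fold change -0.93, SE 0.23, edgeR adjusted p = 0.0814), and without it the value was -1.12 (edgeR adjusted p = 0.00474). C1qa, a chain of the complement starter C1q, held 205, 183, 222, 207 and 66.5 CPM and 101, 55.97, 124, 65.5 and 51.2, differing by -1.15 on the log2 scale (edgeR adjusted p = 0.0627), and -1.36 (edgeR adjusted p = 0.00325) without that library. Cst7, an inhibitor of cathepsins that marks the disease-associated state, had -1.78 (edgeR adjusted p = 0.0932) and -2.02 (edgeR adjusted p = 0.0184) in the same order. Csf1r, the receptor on which microglia depend for survival, had -0.55 and -0.66, and Apoe, a lipid carrier, -0.40 and -0.49; both passed only without library 5 (edgeR adjusted p = 0.00868 and 0.00805). P2ry12, a purinergic receptor gene typical of resting microglia, had -0.083 with all libraries and -0.20 without library 5 (edgeR adjusted p = 0.322).

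Antigen presentation genes of MHC class II were lower by similar amounts with and without PS19 library 5. Cd74, the invariant chain that escorts class II molecules, held 17.01, 28.1, 18.00, 32.2 and 21.7 CPM in PS19 and 15.2, 5.35, 9.66, 9.501 and 8.45 in PS19/C3aR KO. The groups did not overlap, and PS19/C3aR KO library 1 came nearest to PS19 (log2 fold change -1.28, SE 0.25, edgeR adjusted p = 0.0361). H2-Oa (chromosome 17, 34092379 to 34095234), which encodes a chain of the class II modulator DO, was low throughout, at 0.537, 0.469, 0.553, 0.550 and 0.280 CPM in PS19 and 0.166, 0.120, 0.0863, 0.0618 and 0.0815 in PS19/C3aR KO. Those groups did not overlap either (log2 fold change -2.20, SE 0.42, edgeR adjusted p = 0.0322). Cd74 stood at 6.49 ± 1.45 CPM in WT and 6.22 ± 1.91 in C3aR KO. Of 8 class II genes 2 fell, and the median was -0.88, and -0.89 without PS19 library 5. The list score ranged over 0.73 to 1.28 in PS19. In PS19/C3aR KO it ranged over -0.23 to 0.76, where library 1 was the highest and 0.047 the next.

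Class II promoters are bound by the RFX and NF-Y complexes at the X and Y boxes, and both are scaffolds for the coactivator CIITA. The 120 bases before the start of 3 members are shown because 7 of the 8 class II genes were lower at an unadjusted p below 0.05. Of the 8 list genes 5 had a RefSeq promoter (GRCm38.p6). The letters AGCAAC, from the X box, and ATTGG, from the Y box, are in capitals where a search of the printed strand found them. H2-Oa lies at chr17:34092259-34092378 on the plus strand, H2-Eb1 at chr17:34305747-34305866 on the plus strand, and H2-Aa at chr17:34287824-34287943 on the minus strand.
H2-Oa: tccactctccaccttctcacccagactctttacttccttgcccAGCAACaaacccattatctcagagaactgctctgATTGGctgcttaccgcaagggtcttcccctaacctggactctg
H2-Eb1: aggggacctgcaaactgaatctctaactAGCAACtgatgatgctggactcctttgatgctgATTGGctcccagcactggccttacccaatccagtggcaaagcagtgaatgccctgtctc
H2-Aa: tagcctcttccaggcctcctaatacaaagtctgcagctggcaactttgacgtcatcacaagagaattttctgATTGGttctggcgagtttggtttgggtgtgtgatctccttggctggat
In H2-Oa the X letters began at -77 and the Y letters at -43, 34 bases apart, and in H2-Eb1 they began at -92 and -59, 33 bases apart. In H2-Aa the Y letters began at -48, and AGCAAC was not in this window. The search took exact letters only, so a missing AGCAAC does not show that an X box is missing. Before the Y letters H2-Aa holds ggcaac, which differs from AGCAAC in its first letter. Of the matched genes not shown, H2-DMb1 held the Y letters at -61 without the exact X letters, though with agtaac before them. H2-DMa, listed with 2 starts, held neither. The spaced pair of exact letters was thus in 2 of 5 genes. Over 250 bases of 32851 promoters, searched on both strands, AGCAAC was in 12.2%, ATTGG in 33.8%, and both in this order, 30 to 38 bases apart, in 33 (0.1%). H2-Eb1 and H2-Aa, the class II beta and alpha chains, did not pass the adjusted threshold. H2-Eb1 held 2.98, 8.03, 5.48, 5.53 and 5.01 CPM in PS19 and 5.91, 1.73, 1.61, 3.21 and 2.55 in PS19/C3aR KO (log2 fold change -0.85, SE 0.33, edgeR adjusted p = 0.233). H2-Aa held 5.35, 12.03, 7.06, 8.47 and 8.25 CPM and 6.87, 2.95, 3.59, 4.45 and 4.100 (log2 fold change -0.91, SE 0.26, edgeR adjusted p = 0.112). For both, PS19/C3aR KO library 1 lay inside the PS19 range.

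Most lysosomal genes lay below 0, of which edgeR called 1, DESeq2 13 and limma-voom 2. Gusb (chromosome 5, 129989011 to 130003049), the lysosomal beta-glucuronidase, held 26.4, 23.4, 25.01, 28.05 and 18.6 CPM in PS19 and 18.7, 15.1, 19.1, 14.7 and 13.8 in PS19/C3aR KO. The groups overlapped only through PS19 library 5 (log2 fold change -0.58, SE 0.10, edgeR adjusted p = 0.0275). In WT it stood at 14.2 ± 0.762 CPM. Of 31 lysosome genes 1 fell, 23 were lower and 1 higher at an unadjusted p below 0.05, and the median was -0.26; without PS19 library 5, 16 fell and the median was -0.32. Man2b2, a mannosidase gene, fell from 53.4 ± 4.66 to 43.3 ± 3.11 CPM (log2 fold change -0.31, SE 0.060, edgeR adjusted p = 0.0375). Its difference in C3aR KO minus WT was 0.11 (SE 0.060).

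Cryab, Il33 and Phgdh, genes with a role in astrocytes or oligodendrocytes, fell. Cryab (chromosome 9, 50745951 to 50756636), the small heat shock protein alpha-B crystallin of oligodendrocytes and astrocytes, held 102, 119.7, 117, 124 and 92.2 CPM in PS19 and 67.2, 56.7, 73.6, 82.4 and 81.1 in PS19/C3aR KO. The groups did not overlap (log2 fold change -0.62, SE 0.12, edgeR adjusted p = 0.0322); its gene model overlaps that of Hspb2. Il33 (chromosome 19, 29925113 to 29960718), an alarmin cytokine of oligodendrocytes and astrocytes, held 78.5, 58.8, 68.1, 82.9 and 59.7 CPM and 42.5, 43.8, 44.2, 49.2 and 44.3. All PS19/C3aR KO values of Il33 lay within a narrow range below every PS19 value (log2 fold change -0.64, SE 0.12, edgeR adjusted p = 0.0322). Phgdh, the first enzyme of serine synthesis, which astrocytes express, fell from 85.1 ± 8.09 to 68.5 ± 3.83 CPM (log2 fold change -0.31, SE 0.064, edgeR adjusted p = 0.0421). In C3aR KO minus WT, Il33 and Phgdh were also lower, at -0.30 and -0.16 (edgeR unadjusted p = 0.0215 and 0.0206). Cryab had -0.053 there.

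Gfap, the filament protein of reactive astrocytes, did not pass. It held 2451, 2025, 2637, 2729 and 898 CPM in PS19 and 1865, 771, 1463, 1004 and 661 in PS19/C3aR KO, and PS19 library 5 lay among the latter (log2 fold change -0.90, SE 0.28, edgeR adjusted p = 0.141). Without library 5 the value was -1.09 (SE 0.24, edgeR adjusted p = 0.0196). Of 13 pan-reactive astrocyte genes edgeR called 0, DESeq2 1 and limma-voom 0, 6 had an unadjusted p below 0.05, all 13 lay below 0, and the median was -0.61. The list score was 1.87, 1.90, 2.24, 2.25 and 0.47 in PS19 and 1.93, 0.69, 1.46, 1.27 and 0.57 in PS19/C3aR KO. PS19/C3aR KO library 1 was thus level with the PS19 libraries other than 5. Of 20 general astrocyte genes, among them the water channel gene Aqp4, edgeR called 0, DESeq2 6 and limma-voom 0, 12 had an unadjusted p below 0.05, and the median was -0.20. Without PS19 library 5, 8 of them fell.

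For C3, the source of the receptor's ligand, the libraries held 17.9, 12.8, 30.9, 37.6 and 8.95 CPM in PS19 and 14.7, 2.06, 10.6, 6.88 and 8.66 in PS19/C3aR KO. The groups overlapped (log2 fold change -1.34, SE 0.57, edgeR adjusted p = 0.286). In C3aR KO minus WT the C3 value was -1.18 (SE 0.65), with an edgeR adjusted p of 0.868. C4b, another complement gene, held 382, 413, 501, 372 and 168 CPM and 409, 104, 217, 149 and 115 (log2 fold change -0.89, SE 0.31, edgeR adjusted p = 0.185); its near-identical copy C4a could share reads. Of 25 complement genes edgeR called 0, DESeq2 6 and limma-voom 0; 9 were lower and 1 higher at an unadjusted p below 0.05, and the median was -0.17. Of 28 genes of the type I interferon response 0 were called by edgeR, DESeq2 or limma-voom and 0 had an unadjusted p below 0.05, although 27 lay below 0. Their score ran from 0.25 to 2.20 over the PS19 libraries and from 0.36 to 2.04 over the others.

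Genes of mature oligodendrocytes all lay below 0. Of the 20, with a median of -0.29, edgeR called 0, DESeq2 1 and limma-voom 0, 10 had an unadjusted p below 0.05, and 5 did not overlap between the groups (1.58% of all genes were lower without overlap). Mog, a myelin surface protein gene, held 59.8, 50.3, 57.6, 66.4 and 55.1 CPM in PS19 and 47.8, 39.8, 41.1, 54.9 and 52.03 in PS19/C3aR KO (log2 fold change -0.29, SE 0.14, edgeR adjusted p = 0.33). Without PS19 library 5, 0 of the 20 were called and the median was -0.31. The median in C3aR KO minus WT was -0.11.

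The synapse list lay near 0, and the cholesterol synthesis list lay above it. Of 30 synapse genes 0 were called by edgeR, DESeq2 or limma-voom, 4 were higher at an unadjusted p below 0.05, and the median was 0.041. Dlg4, which encodes the postsynaptic scaffold PSD-95, differed by 0.026 on the log2 scale (SE 0.047, edgeR adjusted p = 0.845), and Snap25, a presynaptic fusion protein gene, 0.10 (SE 0.055, edgeR adjusted p = 0.413). Of 24 cholesterol synthesis genes 23 lay above 0 and 11 were higher at an unadjusted p below 0.05 (5.6% of all genes were), with a median of 0.19. Of these edgeR called 0, DESeq2 1 and limma-voom 0. Fdft1, which encodes squalene synthase, held 54.1, 62.5, 49.5, 52.3 and 72.9 CPM in PS19 and 62.7, 85.6, 73.6, 71.97 and 68.5 in PS19/C3aR KO, with library 5 the highest in PS19 (log2 fold change 0.32, SE 0.094, edgeR adjusted p = 0.127). Without that library 5 of the 24 rose (0.37% of all genes did), Fdft1 among them (log2 fold change 0.41, edgeR adjusted p = 0.0128).

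3 called genes of low level had near-identical relatives, so reads could be split between copies. Serpina3h (chromosome 12, 104247896 to 104254405), a serine protease inhibitor gene, held 8.55, 2.54, 6.09, 3.98 and 1.76 CPM in PS19 and 0.359, 0.0960, 0.173, 1.298 and 0.190 in PS19/C3aR KO. Library 4 was the highest of the PS19/C3aR KO libraries, and the groups did not overlap (log2 fold change -3.37, SE 0.64, edgeR adjusted p = 0.0322). Levels without the transgene were 2.76 ± 1.47 CPM in WT and 2.92 ± 1.59 in C3aR KO, both above PS19/C3aR KO. Its neighbour Serpina3m showed the same order, with 2.14 ± 0.998 CPM in PS19 and 0.163 ± 0.335 in PS19/C3aR KO (edgeR adjusted p = 0.0461), whereas Serpina3n, the abundant astrocyte member, was not called (log2 fold change -0.81, SE 0.34, edgeR adjusted p = 0.275). Ifi202b, an interferon-inducible gene, was at 1.097, 4.101, 2.82, 0 and 0.476 CPM in PS19, with library 4 at 0, and at 0, 0, 0.115, 0.0412 and 0 in PS19/C3aR KO (edgeR adjusted p = 0.0441). No fold is given for Ifi202b or Serpina3m, since most PS19/C3aR KO libraries were at or near 0.

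The 12 higher genes differed in the same direction without the transgene. All 12 had a positive difference in C3aR KO minus WT, where 9 had an unadjusted p below 0.05, against 6% of all genes. Of the 30 lower genes 26 shared the sign and 9 had such a p. Signs matched for 64.9% of all genes tested, and for 78.6% of the 2416 genes with an unadjusted p below 0.05 in the tau comparison. The share for the lower genes, 86.7%, was not far from the latter. Of the 2416 genes, 322 had such a p in both comparisons with the same sign. The medians were 0.56 and 0.30 for the higher genes, and -0.83 and -0.14 for the lower ones, in the tau comparison and in C3aR KO minus WT. The tau values chose these genes and are a description. The second comparison used other libraries, so its differences did not enter the choice. Its p-values came from the same fit, with the spread of each gene estimated over all 20 libraries, and are not independent of the choice.

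Fam198b (chromosome 3, 79884484 to 79946278), a Golgi membrane protein gene, was the plainest of them. PS19 libraries held 2.82, 3.21, 4.11, 4.27 and 4.22 CPM and PS19/C3aR KO libraries 9.05, 7.37, 9.26, 8.86 and 9.69, and WT held 4.42, 3.83, 7.77, 4.01 and 4.08 and C3aR KO 10.9, 8.36, 8.899, 6.63 and 8.89. The tau groups were far apart (log2 fold change 1.25, SE 0.18, edgeR adjusted p = 0.0076), and without the transgene the difference was 0.86 (SE 0.18). Coq2 (chromosome 5, 100654723 to 100674288), a coenzyme Q synthesis gene, held 42.1, 42.8, 42.9, 39.3 and 42.5 CPM in PS19 and 51.5, 52.9, 61.4, 64.1 and 53.8 in PS19/C3aR KO, with no overlap (log2 fold change 0.44, SE 0.068, edgeR adjusted p = 0.0115) and 0.35 (SE 0.068) without the transgene. Ltbp4, which encodes a TGF-beta binding matrix protein, rose from 52.2 ± 4.12 to 69.8 ± 4.59 CPM (log2 fold change 0.42, SE 0.060, edgeR adjusted p = 0.0076). Zfp963, a zinc finger gene, held 4.097, 5.21, 4.43, 4.38 and 4.73 CPM and 7.07, 7.92, 6.56, 8.94 and 7.49 (log2 fold change 0.73, SE 0.10, edgeR adjusted p = 0.0076). Atf4, a transcription factor of the integrated stress response, rose from 87.2 ± 10.9 to 126 ± 8.56 CPM (log2 fold change 0.53, SE 0.11, edgeR adjusted p = 0.0421), and was the called gene among 22 of the unfolded protein response, whose median was -0.084.

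**Figure D3:**
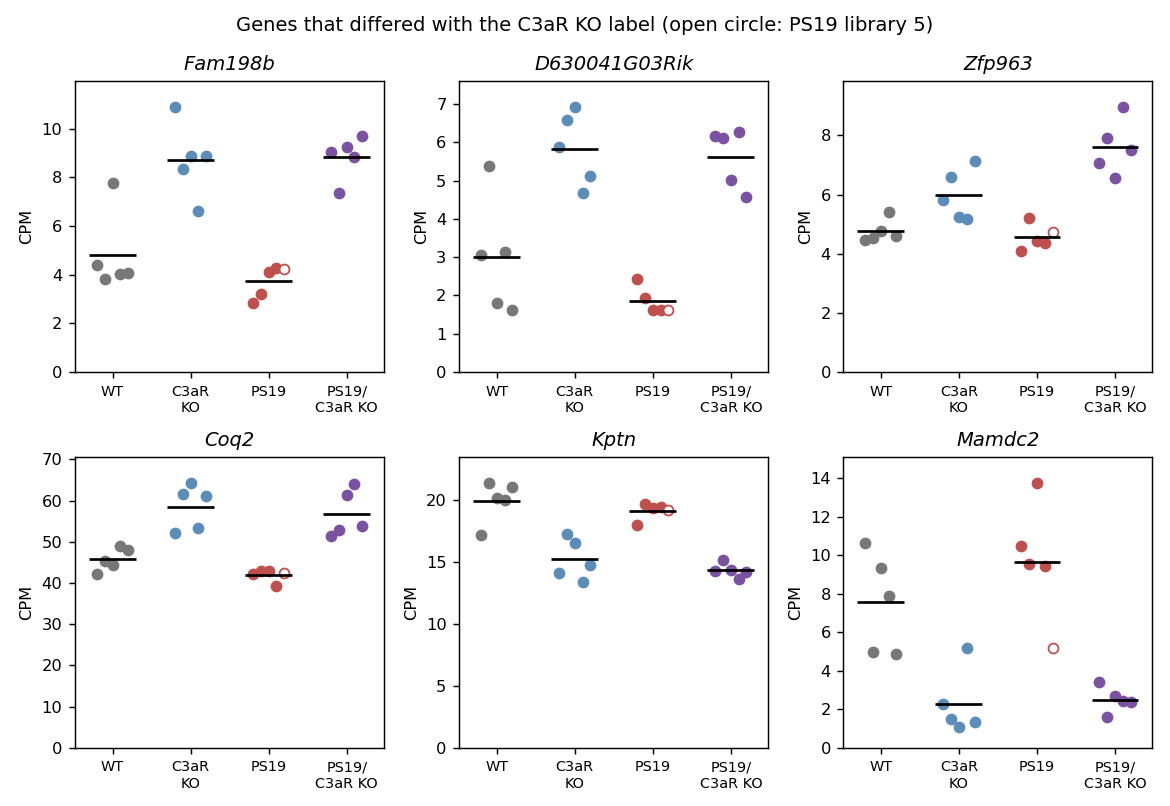
Normalized counts (CPM) in each library for 6 genes that differed between libraries with and without the C3aR KO label; points are libraries, lines are group means, and the open circle is PS19 library 5. Fam198b is at 2.82 to 4.27 CPM in the PS19 libraries and 7.37 to 9.69 in those labelled PS19/C3aR KO, and the C3aR KO mean is above the WT mean for Fam198b, D630041G03Rik, Zfp963 and Coq2 and below it for Kptn and Mamdc2.

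Cryz and Kptn were called in both comparisons, 2 of the 42 and 2 of the 10 genes called in C3aR KO minus WT (0.06% of those tested). Cryz (chromosome 3, 154596711 to 154623182), which encodes a quinone reductase, held 14.5, 15.05, 14.7, 14.02 and 14.2 CPM in PS19 and 18.1, 18.6, 17.3, 19.2 and 18.5 in PS19/C3aR KO (log2 fold change 0.34, SE 0.059, edgeR adjusted p = 0.0275). Without the transgene its difference was 0.41 (SE 0.059) (edgeR adjusted p = 0.00497). Its model overlaps that of Tyw3. Kptn (chromosome 7, 16119876 to 16127516), a component of the KICSTOR complex that restrains mTORC1, held 18.02, 19.7, 19.4, 19.5 and 19.2 CPM and 14.3, 15.2, 14.4, 13.7 and 14.2 (log2 fold change -0.42, SE 0.069, edgeR adjusted p = 0.0214), and -0.39 (SE 0.069) (edgeR adjusted p = 0.03) without the transgene. For both genes the tau groups lay apart by more than the range within either. Mamdc2 (chromosome 19, 23302609 to 23448497), an extracellular matrix gene that disease-associated microglia also express, held 10.5, 9.51, 13.7, 9.44 and 5.18 CPM in PS19 and 3.39, 1.58, 2.703, 2.43 and 2.36 in PS19/C3aR KO (log2 fold change -1.96, SE 0.37, edgeR adjusted p = 0.0322). It stood at 7.54 ± 2.58 CPM in WT and 2.26 ± 1.68 in C3aR KO, a difference of -1.73 (SE 0.37).

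**Figure D4:**
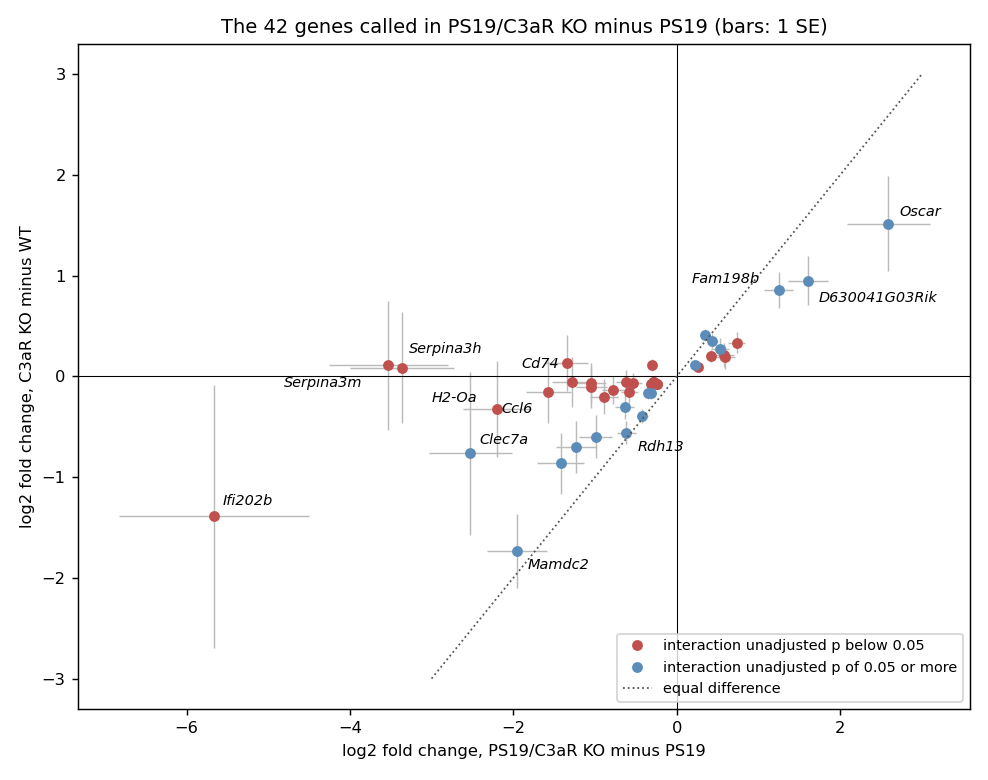
Log2 fold change of the 42 called genes in PS19/C3aR KO minus PS19 (x) against C3aR KO minus WT (y); bars are 1 standard error, the dotted line marks equal differences, and red points have an unadjusted interaction p below 0.05. Mamdc2 and Rdh13 lie near the dotted line, while Cd74, Ccl6 and the Serpina3 genes lie near 0 on the y axis.

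4 called genes, Oscar, Rps9, Rdh13 and D630041G03Rik, lay in 1 stretch of chromosome 7. Oscar (chromosome 7, 3609813 to 3616157), an immunoglobulin-like receptor gene of myeloid cells, held 0.940, 0.148, 0.158, 0.157 and 0.280 CPM in PS19 and 2.57, 1.85, 2.07, 2.53 and 1.44 in PS19/C3aR KO. PS19 library 1 was the highest of its group and below the lowest PS19/C3aR KO library (log2 fold change 2.59, SE 0.51, edgeR adjusted p = 0.0363). This myeloid gene was thus higher where Clec7a was lower, but it was also higher without the transgene, by 1.52 (SE 0.47). WT libraries held 0.148 to 1.25 CPM of Oscar and C3aR KO libraries 1.66 to 2.85. Rdh13, a retinol dehydrogenase gene, fell from 35.1 ± 6.38 to 22.9 ± 1.36 CPM (log2 fold change -0.61, SE 0.11, edgeR adjusted p = 0.0322), and -0.56 (SE 0.11) was its difference without the transgene. D630041G03Rik, a non-coding gene, rose from 1.84 ± 0.359 to 5.62 ± 0.783 CPM (log2 fold change 1.60, SE 0.25, edgeR adjusted p = 0.0115). Without the transgene its groups overlapped, at 1.61 to 5.39 CPM in WT and 4.68 to 6.91 in C3aR KO. The models of Rdh13, D630041G03Rik and Eps8l1 overlap each other and the strand setting is not given, so reads from the stretches they share cannot be told apart. Eps8l1, the remaining one, was at 0.885 ± 0.276 CPM in PS19 and 2.56 ± 0.383 in PS19/C3aR KO (log2 fold change 1.52, SE 0.40, edgeR adjusted p = 0.0898), and so lay in the direction of D630041G03Rik and opposite to Rdh13. Rps9, a ribosomal protein gene, fell from 188 ± 14.3 to 159 ± 6.49 CPM (log2 fold change -0.25, SE 0.044, edgeR adjusted p = 0.0315), the only called member of 30 ribosomal protein genes.

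Within 1 Mb of these 4 genes (chromosome 7, 2609813 to 5467245) 67 genes were tested. Of these 18 had an unadjusted p below 0.05, which is 26.9% against 14.5% of all genes, 14 had one in C3aR KO minus WT (6% of all genes did), and 10 had one in both with the same sign (1.93% of all genes did). Ptprh, a receptor phosphatase gene, was at 0.467 ± 0.212 CPM in PS19 and 1.45 ± 0.493 in PS19/C3aR KO (log2 fold change 1.62, SE 0.34, edgeR adjusted p = 0.0531), and differed by 1.09 (SE 0.33) without the transgene. Mboat7, a phospholipid acyltransferase gene, was at 94.4 ± 3.38 and 120.5 ± 17.1 CPM (log2 fold change 0.35, SE 0.091, edgeR adjusted p = 0.0892), and 0.32 (SE 0.091) without it. Cacng6 was at 1.45 ± 0.785 and 0.384 ± 0.132 CPM, with -1.73 (SE 0.40) without the transgene. The stretch was chosen after its values were seen. The 4 called genes that set it are among the 18, so the 26.9% is raised by that choice. Oscar, Rdh13 and D630041G03Rik are also among the 14 and the 10. Zfp963 and Zfp868 on chromosome 8, Serpina3h and Serpina3m on chromosome 12, and Tm7sf3 and 4930479D17Rik on chromosome 6 were the other called pairs within 1 Mb.

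The interaction, which asks whether the C3aR KO label went with a different change in tau mice than without the transgene, called 2 genes (0.012%), at an unadjusted p below 0.05 in 691 (4.15%). These were C3ar1 (-2.22, SE 0.26, edgeR adjusted p = 0.00106) and Gbp2b (-6.16, SE 0.79, edgeR adjusted p = 0.00188). Gbp2b, a guanylate-binding protein gene near Gbp2 with which it can share reads, held 0, 0.0731, 0.0297, 0 and 0.0520 CPM in WT and 2.65, 2.55, 2.45, 2.23 and 2.38 in C3aR KO. It held 2.78, 5.29, 12.02, 4.88 and 2.18 in PS19 and 8.75, 3.55, 6.096, 4.86 and 2.74 in PS19/C3aR KO. WT was near 0 and the other groups were not, and the tau groups overlapped (log2 fold change -0.063, SE 0.37, edgeR adjusted p = 0.955). Of the 42 genes, edgeR and limma-voom called 0 in the interaction and DESeq2 1, with 25 at an unadjusted p below 0.05, so it is not shown that the myeloid genes differed between the backgrounds; Cd74 had an unadjusted p of 0.00248 and Clec7a of 0.0894, for genes that the tau comparison had chosen.

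Calls depended on single libraries. With each tau library left out in turn, the number of called genes ran from 6 without PS19/C3aR KO library 5 to 481 without PS19 library 5, and was 7 without PS19 library 3, 9 without PS19 library 1, 12 without PS19 library 2 and 222 without PS19/C3aR KO library 1. It was 8, 16 and 17 without PS19/C3aR KO libraries 2, 3 and 4, and 36 without PS19 library 4. All 42 genes kept their sign in the 10 fits. 5 genes, Fam198b, Ltbp4, Zfp963, Coq2 and D630041G03Rik, were called in every one, all of them higher, and 0 of the 30 lower genes were. With the Rn45s share of each library as a covariate, 9 genes were called (7 higher and 2 lower), while the median of the lower genes was -0.80 against -0.83. With only the 10 tau libraries in the fit, 10 genes were called. Clec7a, Cd74, Ccl6, Lat2, Arhgap30, Selplg and Gusb were not among them (edgeR adjusted p = 0.201, 0.122, 0.130, 0.132, 0.178, 0.180 and 0.161).

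**Figure D5:**
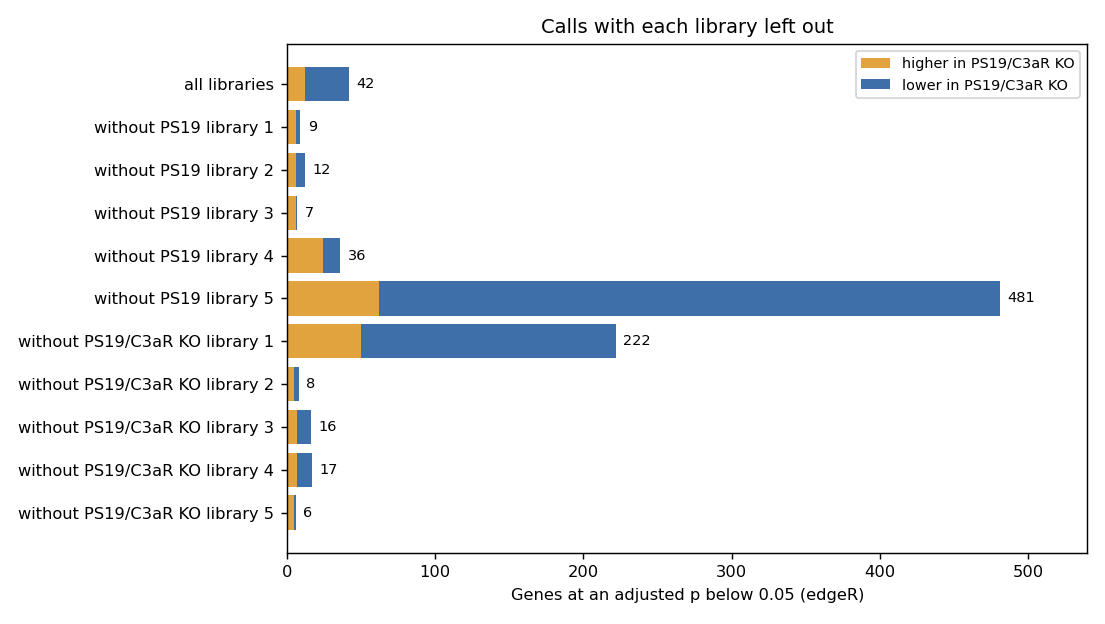
Number of genes at an edgeR adjusted p below 0.05 with all libraries and with each tau library left out, stacked as higher and lower in PS19/C3aR KO. Leaving out PS19 library 5 gives 481 calls and leaving out PS19/C3aR KO library 5 gives 6.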

How the data were processed

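Polyadenylated RNA from hippocampus was sequenced in 20 libraries of 4 genotypes. Per the labels' protocols, the authors aligned read pairs to mm10 with TopHat 2.0.9 and counted exonic reads per gene with HTSeq. The deposited values are raw counts for 24513 genes, and the 5 summary lines of each file entered neither library sizes nor tests. The strand setting was not given in the sources used here. DESeq2 is named, without a role, in the submitters' processing notes.

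Genes were kept by filterByExpr (minimum count 10, minimum total 15; 16657 genes) and fitted with edgeR 4.0.16 (quasi-likelihood, TMM, genotype as the factor, all 20 libraries) in R 4.3.3. Standard errors are the log2 fold change divided by the root of F, with a median of 0.0972 in the main comparison. CPM use TMM library sizes. Alternatives used DESeq2 1.42.0, limma 3.58.1, other filters and scalings, covariates and left-out libraries. The edgeR step was tested on simulated data. No pair of libraries within a group was alike within sampling noise. Positions are from RefSeq GRCm38.p6, matched for 99.8% of symbols.

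The genes, 45 lists and tests were chosen with earlier results of these data known. Named genes were drawn from a fixed panel and from the called genes with the highest and lowest fold change, at most 12 each way. Those called genes had an average log2 CPM of at least 1, and predicted genes were left out. Genes called in both comparisons (at most 15) or in the interaction (at most 5) were added. So were at most 3 called, or otherwise 2 low-p, members of each list. The text describes only part of the genes that this rule gives, and leaves out some called ones. The genes 4930479D17Rik, Arhgap9, Cacng6, D630041G03Rik, Eps8l1, H2-Aa, H2-Eb1, Ifi202b, Man2b2, Mboat7, Oscar, Phgdh, Ptprh, Serpina3m and Tm7sf3 fall outside this rule and were chosen after their values were seen.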

Additional observations from a re-analysis of the deposited data

Results flagged for a closer look

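In groups of 5, a library was set apart where its gap to the nearest other, over the range of the group, was above 0.71; chance does this in about 1 in 20 groups. Among 60 named genes this held for 8 of 120 groups (6.67%), and among 43 list scores for 8 of 86 (9.3%), 5 of them at PS19 library 5.

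PS19 library 5 stood below the other PS19 libraries for C1qa, at 66.5 CPM against 183 to 222, and for Trem2, at 13.8 against 31.6 to 37.3. Its scores were also low for general microglia (0.49 against 1.43 to 1.68), pan-reactive astrocytes (0.47 against 1.87 to 2.25), JAK-STAT3 signalling (0.13 against 0.51 to 0.65) and the lysosome (0.26 against 0.57 to 0.70). Its dentate granule neuron score was high, at 0.064 against -0.38 to -0.30. This library also had the highest Rn45s share of its group, and the part of that share in these values was not tested.

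PS19/C3aR KO library 1 had an MHC class II score of 0.76 against -0.23 to 0.047 in the rest of its group, and a score of -0.14 for tau kinases and phosphatases against -0.050 to -0.015. PS19/C3aR KO library 4 was high for Serpina3h (1.30 CPM against 0.0960 to 0.359), Serpina3m (0.763 against 0 to 0.0276) and Il33 (49.2 against 42.5 to 44.3). PS19 library 1 was high for Oscar (0.940 CPM against 0.148 to 0.280) and low for Kptn (18.0 against 19.2 to 19.7). PS19 library 4 was low for Coq2 (39.3 CPM against 42.1 to 42.9). PS19 library 2 had a heat shock score of 0.79 against 0.11 to 0.21.

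The difference by the C3aR KO label itself differed with the transgene for C3ar1 (interaction -2.22) and Gbp2b (interaction -6.16), by the edgeR interaction term.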

How the results depend on the processing

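In PS19/C3aR KO minus PS19, edgeR's 42 calls became 443 with DESeq2, 89 with limma-voom, 10 with only the 10 libraries compared and 9 with the Rn45s covariate, and 6 to 481 with a library left out. With the other settings, which changed scaling, filters or added a choroid plexus covariate, they were 33 to 48. C3aR KO minus WT, with 10 calls, gave 58 with DESeq2, 5 with only 10 libraries, 3 with the Rn45s covariate and 5 to 15 with a library left out. The interaction, with 2 calls, gave 1 with limma-voom and 2 to 5 with a library left out. The cause of these moves was not tested. The labels do not say that replicate numbers pair the libraries. The deviations of same-numbered tau libraries correlated at 0.0515 to 0.514, above 0.1 in 4 of 5 pairs, and 2 of 5 correlated best with their own number, so pairing was not taken as given. The fit with the replicate number as a block called 212 genes in the tau comparison, 14 in C3aR KO minus WT and 2 in the interaction.

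Among the 60 genes named in the text, signs reversed for 4, none of them called in this comparison. Gbp2b was at 0.080 with limma-voom, 0.029 with the replicate block, 0.0042 with the Rn45s covariate, and 0.46, 0.052 and 0.10 without PS19 library 3 and PS19/C3aR KO libraries 2 and 5 (range with a library left out -0.33 to 0.46). Ttr was at 0.18 with the choroid plexus covariate, 0.12 without PS19 library 1 and 0.057 without PS19 library 5 (-1.01 to 0.12). P2ry12 was at 0.0028 without PS19 library 3 (-0.20 to 0.0028), and Prnp at -0.015 without PS19/C3aR KO library 2 (-0.015 to 0.024). With 5 libraries a group and a median standard error of 0.0972, differences of small size were not detectable.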
